A study of Mus musculus with 42 samples.

Results

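Dbp, Tef, Hlf and Nfil3 are the basic leucine zipper genes through which the circadian clock passes its rhythm on to many liver genes. Dbp, Tef and Hlf encode the 3 activators of the PAR family, named for a domain rich in proline and acidic residues, and Nfil3 encodes a repressor that recognises the same DNA element. The 4 genes were taken by name and placed by the GENCODE vM21 annotation of the mouse mm10 genome. They are 4 of 21938 protein-coding genes, mitochondrial genes left out, and of 20807 genes on chromosomes that held a lamina-associated domain (LAD) in every library, the set in which all were ranked and tested.

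The clock factors CLOCK and BMAL1 drive Dbp through E-box elements, and the PAR proteins in turn bind D-box elements, where NFIL3 competes with them. In liver the PAR proteins are known for their control of detoxification genes, among them cytochrome P450 genes and the nuclear receptor gene Nr1i3. LADs are long stretches of chromatin that touch the lamin meshwork under the nuclear envelope, and they are known to be poor in genes and mostly low in expression.

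LADs were mapped by chromatin immunoprecipitation of lamin B1 (LMNB1) and sequencing, from livers of wild-type C57Bl/6 mice kept in 12 h of light and 12 h of dark. The non-synchronized (NS) group was taken before any fasting, at midday. The mice of the circadian times CT0, CT6, CT12, CT18, CT24 and CT30 had been without chow for 24 h, and food was given back freely from CT0 on. Of the 7 mice killed in each group, 2 gave a list of LADs, which makes 14 libraries. The labels call the mice male in the housing protocol and female in other fields, and give no age. The comparisons ask whether the genes lay in or near LADs and whether their distance to a LAD differed between circadian times.

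The 14 lists held 86 to 341 LADs per mouse, 2845 in all, covering 335 to 663 Mb. The lists give positions without read counts, so the depth behind each LAD is unknown. EDD, the caller, counts reads in bins whose size it estimates for each library, and the LAD starts lay on grids of 4 to 61 kb. In 5 libraries the bin was over 30 kb: NS mouse 1, CT0 mouse 1, CT6 mouse 1 and both CT30 mice. Mouse 1 had the larger bin and fewer LADs in the NS, CT0, CT6 and CT18 groups, and the smaller bin at CT12, CT24 and CT30. A LAD is called on a piece of liver as a whole, so the share of cells in which a locus touched the lamina was not measured, and liver markers could not be checked in lists of positions.

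Dbp (ENSMUSG00000059824.12) lies on the forward strand at chr7:45705088-45710203, Tef (ENSMUSG00000022389.15) on the forward strand at chr15:81802421-81826863, Hlf (ENSMUSG00000003949.16) on the reverse strand at chr11:90336536-90390895 and Nfil3 (ENSMUSG00000056749.7) on the reverse strand at chr13:52967209-52981073. Distances were taken from the outermost annotated start site of each gene, and upstream and downstream are read along the gene's own strand.

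The bases before a start site of each gene are shown, for Hlf, Dbp and Nfil3 those that end at or near the point from which distances were measured. They are RefSeq promoter sequences of GRCm38.p6, the mm10 assembly, read 5′ to 3′ on the gene's strand. All 4 genes matched that table, Tef with 2 entries. The stretches run over chr11:90390918-90391167 for Hlf, chr7:45704997-45705087 for Dbp and chr13:52981074-52981289 for Nfil3, and overlap no annotated exon or transcript. The Tef stretch, chr15:81811164-81811413, precedes an internal RefSeq start at base 81811414, not the start at 81802421 used for the distances. It lies in Tef introns and touches no exon. Capitals mark matches to the motifs searched.
Hlf: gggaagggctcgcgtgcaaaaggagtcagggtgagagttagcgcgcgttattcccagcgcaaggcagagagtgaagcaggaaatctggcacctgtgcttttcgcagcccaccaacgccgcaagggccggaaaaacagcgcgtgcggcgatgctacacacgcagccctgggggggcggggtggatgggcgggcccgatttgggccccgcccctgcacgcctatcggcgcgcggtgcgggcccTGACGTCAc
Tef: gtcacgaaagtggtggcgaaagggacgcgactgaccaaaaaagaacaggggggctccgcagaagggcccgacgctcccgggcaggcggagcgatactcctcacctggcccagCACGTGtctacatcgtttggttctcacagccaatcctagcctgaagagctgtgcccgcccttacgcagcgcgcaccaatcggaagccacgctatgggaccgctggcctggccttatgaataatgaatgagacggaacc
Dbp: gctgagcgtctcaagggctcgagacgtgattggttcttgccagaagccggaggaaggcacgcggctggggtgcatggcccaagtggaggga
Nfil3: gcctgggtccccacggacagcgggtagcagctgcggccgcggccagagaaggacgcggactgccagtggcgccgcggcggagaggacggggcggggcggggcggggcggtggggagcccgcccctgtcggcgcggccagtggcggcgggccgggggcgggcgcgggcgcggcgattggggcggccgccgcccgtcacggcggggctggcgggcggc
The motifs were searched on both strands in the 250 bases before each RefSeq start: CACGTG (E-box), TTATGTAA and TTACGTAA (D-box), TGACGTCA (cAMP response element) and AGGTCA (the core motif of REV-ERB and ROR receptors). An E-box stood before both RefSeq starts of Tef, 81811414 and 81802673, and 6.02% of the 32851 promoters of the table held one. The window before 81802673 lies wholly inside the GENCODE gene, past the start used for the distances, and is not shown. The cAMP response element stood right before the Hlf start, against 1.55% of promoters. The receptor motif stood near the Nfil3 start, on the other strand and past the stretch shown, against 14.02% of promoters. No letters of these motifs were found in the Dbp window, part of which lies inside the GENCODE gene and is not shown. No D-box was found in any of the 5 windows (0.819% and 0.113% of promoters held the 2 forms). No matches overlapped. A match is a run of letters and was not tested for binding.

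None of the 4 start sites lay in a LAD in any of the 14 libraries. This was the state of most genes: 17.1% of the 20807 genes had their start in a LAD in at least 1 library, and 4.18% to 10.8% did in a single library. The genes differed in how far away the nearest LAD was. The mean distance over the 14 mice was 0.342 Mb for Hlf, 3.36 Mb for Dbp, 9.09 Mb for Tef and 9.79 Mb for Nfil3, beside a median of 5.55 Mb over all genes. Ranked among all genes from near to far, the means stood at percentile 2.77 for Hlf, 31.1 for Dbp, 69.9 for Tef and 73.5 for Nfil3. Ranks within single libraries ran from 6.10 to 18.8 for Hlf and from 19.8 to 54.0 for Dbp. They ran from 35.2 to 88.9 for Tef and from 58.4 to 88.2 for Nfil3. The rank of the Hlf mean was thus lower than its rank in any single library.

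**Figure D1:**
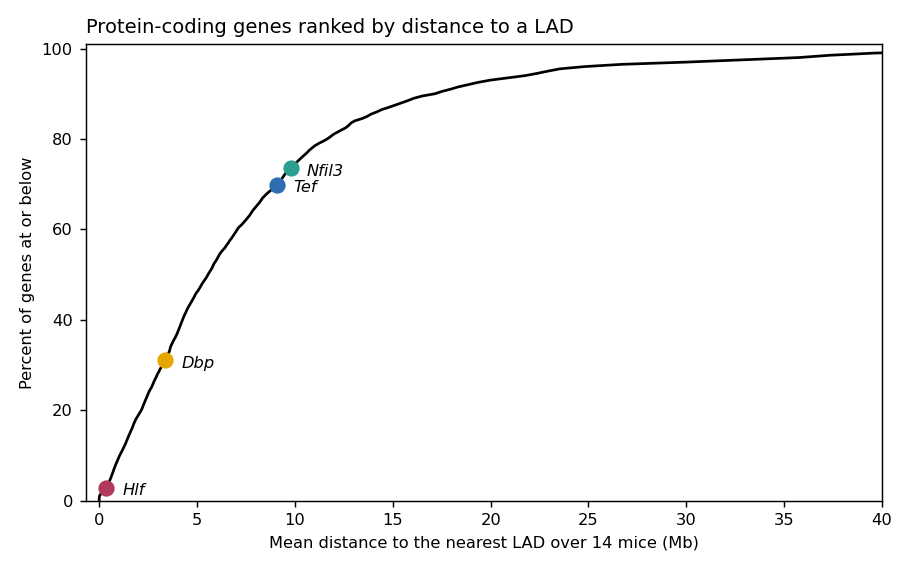
Mean distance from the start site to the nearest LAD over 14 mice (x axis, Mb, up to 40 Mb) against the percent of the 20807 protein-coding genes at or below it (y axis); the line is all genes and the points are the 4 genes. Hlf sits at percentile 2.77, Dbp at 31.1, and Tef and Nfil3 at 69.9 and 73.5. These are ranks of the means, and within single libraries Hlf ranked between 6.10 and 18.8.

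The flanks themselves had different forms. Hlf stood at the edge of a single large LAD on its upstream side that every mouse had, Dbp between patches of LAD on both sides that only some mice had, Tef far from an upstream LAD that every mouse had, and Nfil3 inside a long stretch without LADs. Such stretches, free of LADs in all 14 mice and bounded by LADs on both sides, were sought on the chromosomes that held a LAD in every library. They numbered 297, with a median length of 2.38 Mb. The stretch around Nfil3, 26.9 Mb at chr13:33880001-60760000 with 208 genes, was the longest of these. The stretch around Hlf was 16.1 Mb long (rank 13), that around Tef 13.1 Mb with 297 genes (rank 23) and that around Dbp 3.78 Mb with 174 genes (rank 111).

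**Figure D2:**
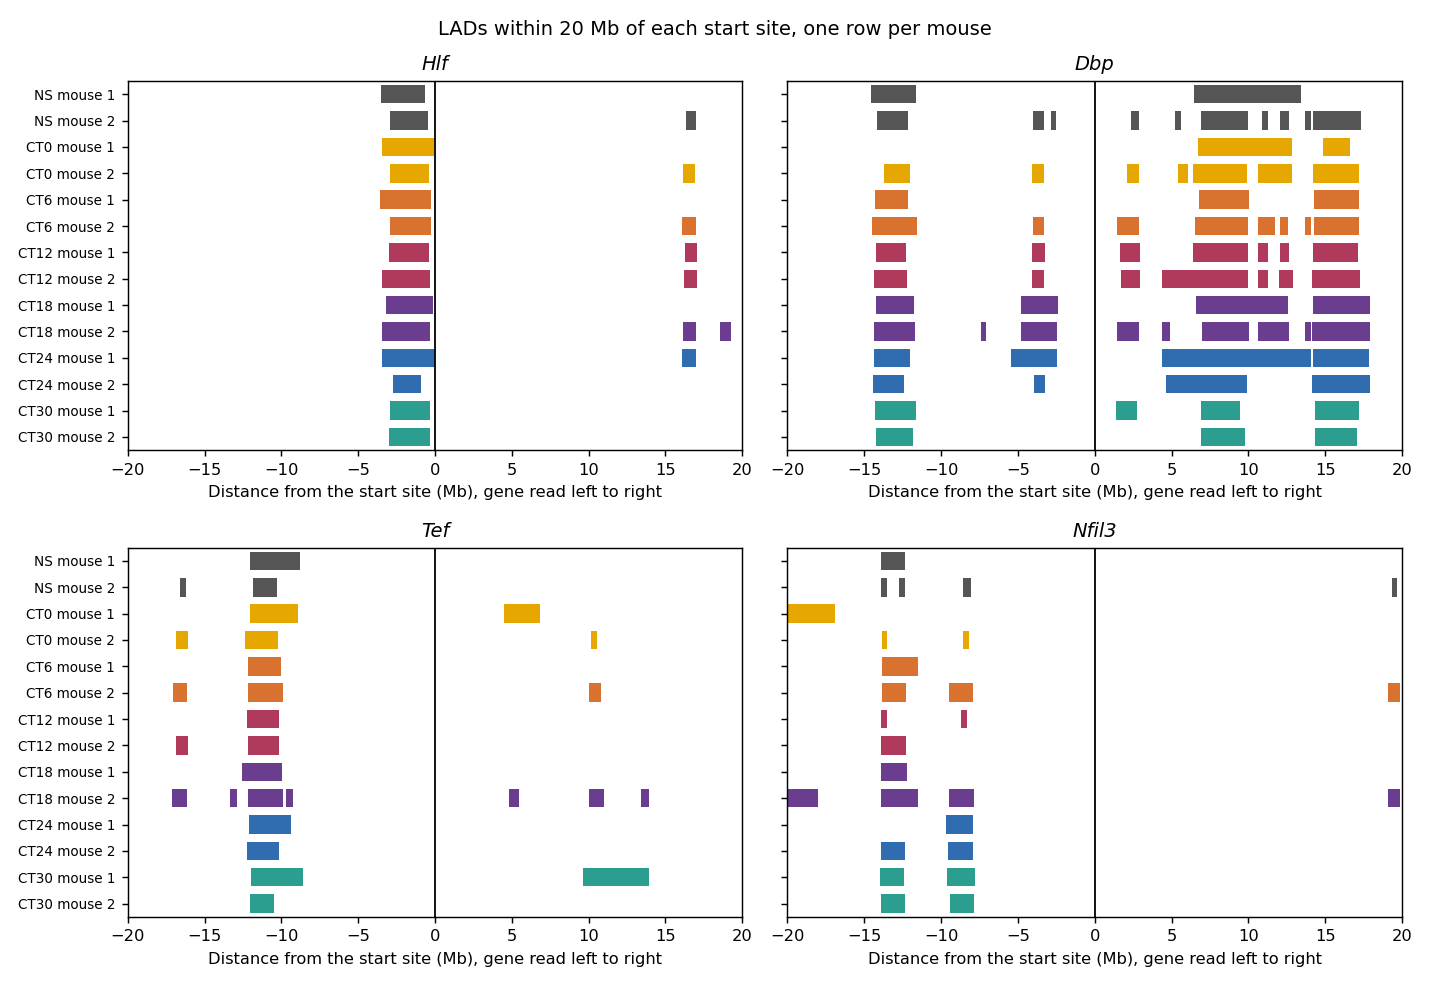
LADs (bars) within 20 Mb of the start site (line at 0) of Hlf, Dbp, Tef and Nfil3, one row per mouse and one color per group; the x axis is the distance in Mb along the gene's strand, upstream to the left. Every row of the Hlf panel has a bar that ends just left of the line, whereas the rows of the other panels are empty next to it.

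Hlf, the PAR activator first known from a gene fusion in leukemia, had its nearest LAD upstream in 14 of 14 mice. The distance was 621 and 465 kb in NS mice, 84.1 and 409 kb at CT0, 259 and 260 kb at CT6, 374 and 329 kb at CT12, 106 and 299 kb at CT18, 7.11 and 905 kb at CT24, and 346 and 321 kb at CT30. The median was 325 kb and the mean 342 ± 226 kb (SD, n = 14). The nearest and the farthest mouse were both of CT24, and the 2 CT6 mice differed by 1 kb. Group means ran from 203 ± 136 kb at CT18 to 543 ± 110 kb in NS mice (SD, n = 2 each). In that order, only the step from CT6 to CT30 separated neighbouring groups whose mice did not overlap. Within single libraries Hlf ranked between percentiles 6.10 and 18.8 of all genes.

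The LAD beside Hlf was 1.82 to 3.47 Mb long and both of its borders moved between mice. The border facing Hlf had an SD of 226 kb and a range of 898 kb over the 14 mice, and the far border, a median of 3101 kb from the start site, an SD of 287 kb and a range of 826 kb. The median difference between the 2 mice of a group was 156 kb at the near border and 551 kb at the far border. A core of 1.82 Mb, chr11:91296001-93114000, was LAD in all 14 mice, and it was the whole LAD of CT24 mouse 2. The part that was LAD in at least 7 mice was 2.88 Mb long and began 321 kb from the start site. The widest reach, chr11:90398001-93940000, was 3.54 Mb. The bin size did not go with this distance: the median was 329 kb in the 9 libraries with bins under 30 kb and 321 kb in the 5 others.

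The widest reach of that LAD held 7 protein-coding start sites, 1.98 per Mb. Nearest to Hlf were Stxbp4, which encodes a syntaxin-binding protein, and Cox11, an assembly factor of cytochrome c oxidase, with start sites 247 kb from that of Hlf. Both lay in the LAD in 3 mice, CT0 mouse 1, CT18 mouse 1 and CT24 mouse 1. Tom1l1, an adaptor of membrane traffic at 297 kb, lay in it in 5 mice, those 3 and both CT6 mice. On the other side of Hlf, Mmd, 141 kb downstream, was outside LADs in all 14 mice, 0.483 Mb from the nearest on average. By a rule chosen after these values were seen, 96 genes (0.461%) lay outside LADs and within 1 Mb of one in every library, and Hlf was among them. By another rule that was not planned, Hlf was also among 58 genes (0.279%) that came within 10 kb of a LAD in at least 1 library and were in none. It met this rule through 1 library, CT24 mouse 1 (7.11 kb), and the next nearest mouse, CT0 mouse 1, was at 84.1 kb. Downstream, the nearest LAD was 16.1 to 47.2 Mb away, and its closest region held the odorant receptor genes Olfr59, Olfr406 and Olfr43, in a LAD in 2, 3 and 4 mice.

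**Figure D3:**
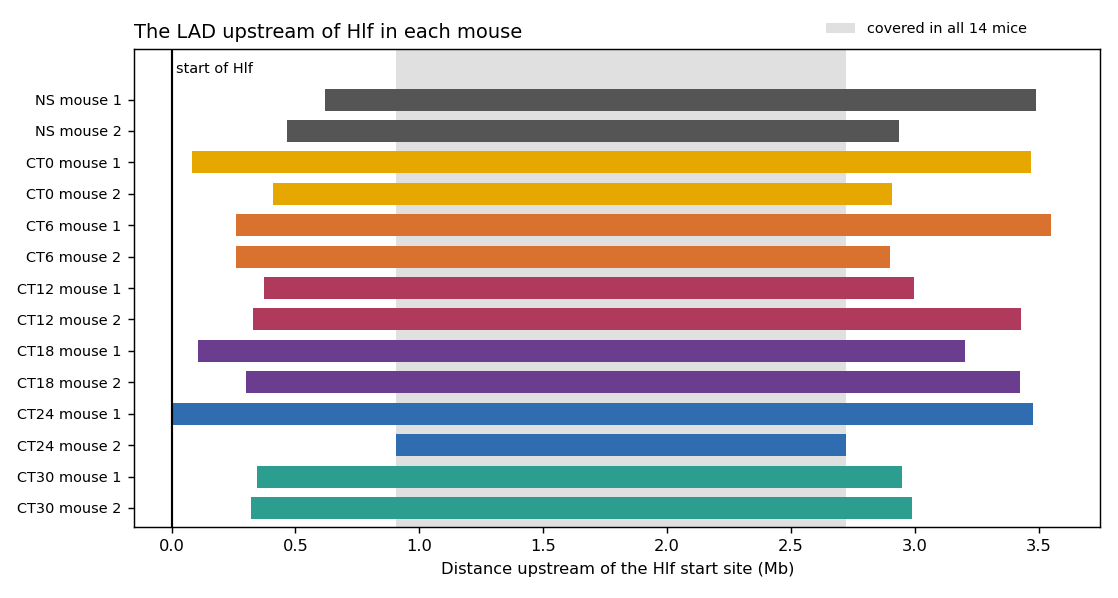
The LAD upstream of Hlf in each mouse (bars, colored by group) by distance upstream of the start site (x axis, Mb; line at 0), with the part covered in all 14 mice shaded. The near border runs from 7.11 kb in CT24 mouse 1 to 905 kb in CT24 mouse 2, and the shaded core is 1.82 Mb long.

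Dbp, the founding PAR gene and a direct target of CLOCK and BMAL1, lay among LADs that were called in part of the mice. The nearest LAD was 6.45 and 2.33 Mb away in NS mice, 6.75 and 2.09 Mb at CT0, 6.79 and 1.45 Mb at CT6, 1.64 and 1.70 Mb at CT12, 2.42 and 1.46 Mb at CT18, 2.46 and 3.23 Mb at CT24, and 1.35 and 6.92 Mb at CT30. The median was 2.38 Mb and the mean 3.36 ± 2.27 Mb (SD, n = 14). Distances fell into 2 sets, 10 mice between 1.35 and 3.23 Mb and 4 mice beyond 6 Mb, and in NS, CT0, CT6 and CT30 each set held 1 of the 2 mice. Group means ran from 1.67 ± 0.0424 Mb at CT12 to 4.42 ± 3.29 Mb at CT0 (SD, n = 2 each), and of neighbouring groups in that order only CT18 and CT24 did not overlap.

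The nearest LAD was downstream of Dbp in 11 mice and upstream in 3. Downstream, the region chr7:47058001-48630000 held a LAD in 7 mice, with Ptpn5, a tyrosine phosphatase gene, nearest to Dbp (in a LAD in 1 mouse), then the sensory receptor genes Mrgpra6 and Mrgpra9 (3 mice each). Upstream, the region chr7:40278001-43282000 held a LAD in 9 mice, and its genes nearest to Dbp, Zfp936, Gm9268 and Vmn2r63, lay in it in 4 mice each. The first base covered in all 14 mice was 6.95 Mb downstream and 33.7 Mb upstream.

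The bin size of the library went with these values. The upstream region held a LAD in 9 of 9 libraries with bins under 30 kb and in 0 of 5 with larger bins, and the downstream region in 6 of 9 and in 1 of 5. The median distance of Dbp was 2.09 Mb (1.45 to 3.23 Mb) in the 9 libraries and 6.75 Mb (1.35 to 6.92 Mb) in the 5. All 4 mice beyond 6 Mb were among the 5. The part of the bin size in the distance was not tested. Car11 and Rpl18, the neighbours of Dbp, which encode a carbonic anhydrase-related protein and a ribosomal protein, were never in a LAD, at means of 3.36 and 3.35 Mb.

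Tef, the PAR activator first described in the pituitary, was nearest to an upstream LAD in 11 mice. The nearest LAD was 8.79 and 10.3 Mb away in NS mice, 4.49 and 10.2 Mb at CT0, 10.0 and 9.90 Mb at CT6, 10.1 and 10.2 Mb at CT12, 9.94 and 4.80 Mb at CT18, 9.39 and 10.2 Mb at CT24, and 8.58 and 10.5 Mb at CT30. The median was 9.98 Mb and the mean 9.09 ± 1.97 Mb (SD, n = 14). All mice but 2 lay between 8.58 and 10.5 Mb. The 2 exceptions, CT0 mouse 1 and CT18 mouse 2, had a LAD downstream of Tef, in chr15:86292001-88642000, where the other 12 mice had none. It was 2.35 Mb long in CT0 mouse 1 and 0.654 Mb long in CT18 mouse 2. Fam19a5 and Zdhhc25 start in this region, each in a LAD in 1 mouse. Group means ran from 7.34 ± 4.03 Mb at CT0 to 10.2 ± 0.0106 Mb at CT12 (SD, n = 2 each), and of neighbouring groups in that order only CT6 and CT12 did not overlap. In 9 mice no LAD followed Tef at all before the end of the chromosome, 22.2 Mb from the start site.

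The upstream LAD region of Tef, chr15:69217001-73222000, held a LAD in 14 of 14 mice, with 39.8% to 85.1% of it covered. Its core, LAD in all of them, began 10.5 Mb from the start site and was 1.42 Mb long. The region held 6 start sites, and those nearest to Tef were Ago2, the slicer of the RNA interference pathway, Chrac1, a chromatin accessibility factor, and Trappc9, a subunit of a vesicle tethering complex, each in a LAD in 1 mouse. The neighbours Rangap1, the activator of the Ran GTPase, and Tob2, an antiproliferative factor, were in no LAD in any mouse. With bins under 30 kb the median distance of Tef was 10.1 Mb, and in the 5 other libraries 8.79 Mb.

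Nfil3, the repressor that opposes the PAR activators at D-boxes, had its nearest LAD upstream in 14 of 14 mice. It was 12.3 and 8.05 Mb away in NS mice, 16.9 and 8.16 Mb at CT0, 11.5 and 7.95 Mb at CT6, 8.30 and 12.3 Mb at CT12, 12.2 and 7.84 Mb at CT18, 7.90 and 7.91 Mb at CT24, and 7.78 and 7.83 Mb at CT30. The median was 8.11 Mb and the mean 9.79 ± 2.81 Mb (SD, n = 14). The 4 mice of CT24 and CT30 lay within 7.78 to 7.91 Mb, whereas each earlier group and the NS group had 1 mouse near 8 Mb and 1 mouse beyond 11 Mb. Group means ran from 7.80 ± 0.0368 Mb at CT30 to 12.5 ± 6.18 Mb at CT0 (SD, n = 2 each). In that order the mice of CT30 and CT24 did not overlap, nor those of CT24 and CT6, and all later neighbours did.

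Whether the distance of Nfil3 was among the shorter or the longer ones turned on 1 region, chr13:60760001-62650000. It held a LAD in 9 mice and none in 5. That LAD was 0.425 Mb long in CT12 mouse 1, 0.432 Mb in CT0 mouse 2 and 0.536 Mb in NS mouse 2. In the others that had it, it was 1.52 to 1.83 Mb long. Of the 5 mice without it, CT0 mouse 1 had its nearest LAD at 16.9 Mb and the others at 11.5 to 12.3 Mb. The region held 26 start sites, of which the nearest, BC051665 and Ctsll3, lay in a LAD in 1 mouse each and 4930486L24Rik in 3 mice. The region held a LAD in 7 of 9 libraries with bins under 30 kb and in 2 of the 5 others, both of CT30, and the part of the bin size was not tested. The first upstream base covered in all 14 mice was 25.5 Mb away. Downstream, the nearest LAD was 19.1 to 25.5 Mb away in 10 mice and absent in 4, and the closest region held the serpin genes Serpinb6e and Serpinb6d, in a LAD in 2 mice each, and Serpinb9g, in 3. The neighbours Auh, which encodes an enzyme of leucine breakdown that also binds RNA, and Ror2, a receptor of Wnt ligands, were outside LADs in all mice.

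**Figure D4:**
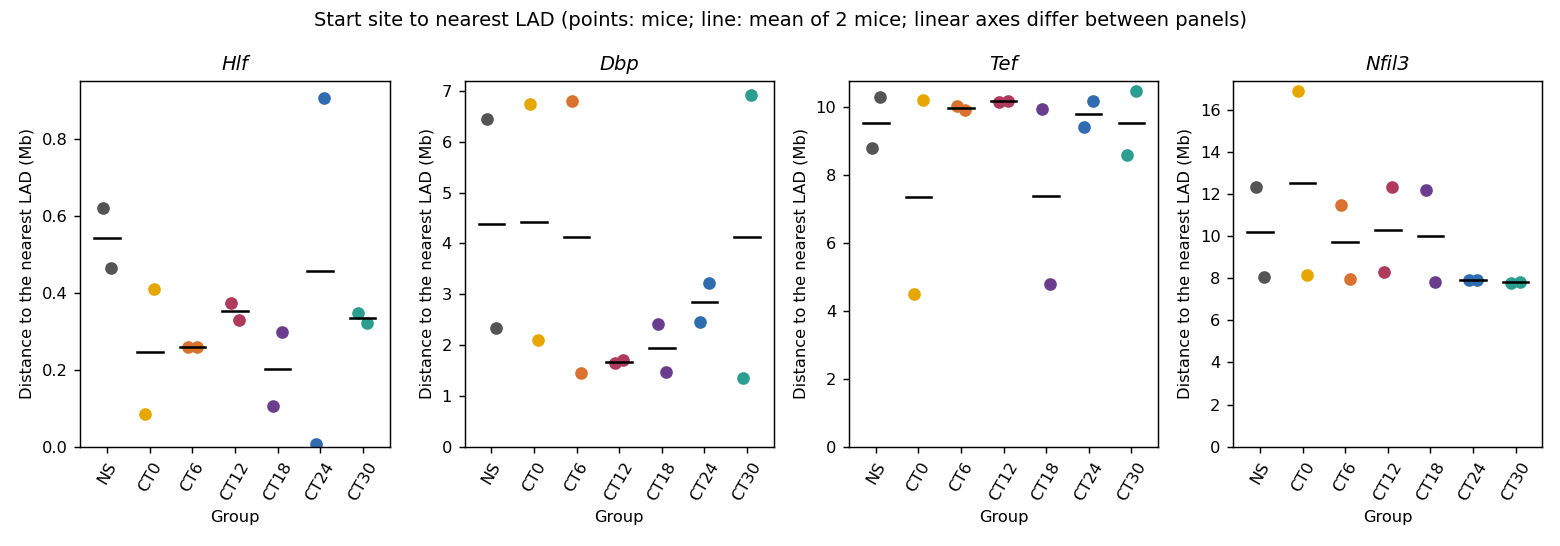
Distance from the start site to the nearest LAD (y axis, Mb, a linear axis from 0 with its own range for each gene) by group (x axis), with a point per mouse and a line at the mean of the 2 mice. In 8 of 28 cases (7 groups for each gene) the mice of a group lie as far apart as the span of the group means or farther. Examples are CT24 for Hlf (7.11 and 905 kb) and CT0 for Nfil3 (8.16 and 16.9 Mb). In the other cases they lie closer together.

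The distance did not differ between circadian times beyond the spread between mice for any of the 4 genes. For each gene the F ratio between CT0, CT6, CT12, CT18, CT24 and CT30 on log10(distance in kb + 10) was set against all 10395 divisions of the 12 libraries into 6 pairs, an exact permutation test, with Benjamini-Hochberg adjustment over all 20807 genes. The permutation p was 0.979 for Hlf, 0.869 for Dbp, 0.733 for Tef and 0.539 for Nfil3, and the adjusted p was 1, 1, 1 and 0.943. All 4 F ratios were under 1, from 0.206 for Hlf to 0.691 for Tef. The test called 0% of all genes at an adjusted p under 0.05, and 1119 genes (5.38%) had an unadjusted p under 0.05, none of them one of the 4. The smallest p that the 10395 divisions allow, 9.62e-05, is too large for a single gene to pass after adjustment over 20807 genes. Only many genes near that floor together could have been called, so the 0% carries little. With 2 mice per time, a p that misses the threshold does not show that the distance was steady.

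The 2 mice of a group differed by up to 0.898 Mb for Hlf (CT24), 5.57 Mb for Dbp (CT30), 5.70 Mb for Tef (CT0) and 8.74 Mb for Nfil3 (CT0). The means of the 7 groups spanned 0.341 Mb for Hlf, 2.74 Mb for Dbp, 2.82 Mb for Tef and 4.73 Mb for Nfil3, in each case less than this largest difference. The median difference between the 2 mice was 0.156 Mb for Hlf, 1.497 Mb for Tef and 4.01 Mb for Nfil3, below the span of the group means, and 4.12 Mb for Dbp, above it. The 2 mice differed by the span of the group means or more in 4 of 7 groups for Dbp, 2 of 7 for Tef, 1 of 7 for Hlf and 1 of 7 for Nfil3. A span over 7 means and a difference between 2 mice are unlike measures, so these comparisons do not show whether the groups differed.

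Pairs of groups were compared for CT0 with NS, CT12 with CT0, CT24 with CT12 and CT24 with CT0, 16 values over the 4 genes. With 2 mice against 2, the two-sided exact permutation test cannot give less than 0.333, so none of them could pass. These comparisons share mice, and in 5 of the 16 the mice of the 2 groups did not overlap. Hlf was nearer to its LAD in both CT0 mice than in both NS mice, by 0.297 Mb, as were 11.1% of all genes. Dbp was nearer in both CT12 mice than in both CT0 mice, by 2.74 Mb (19.6% of all genes), and farther in both CT24 mice than in both CT12 mice, by 1.17 Mb (16.7%). Nfil3 was nearer in both CT24 mice than in both CT12 mice, with a CT24 minus CT12 difference of -2.40 Mb (15% of all genes), and than in both CT0 mice, with a CT24 minus CT0 difference of -4.63 Mb (14.6%). The size of 4 of these 5 differences rested on single mice. Without CT0 mouse 1, CT0 minus NS was -0.134 Mb for Hlf, CT12 minus CT0 was -0.416 Mb for Dbp and CT24 minus CT0 was -0.254 Mb for Nfil3. Without CT0 mouse 2 the same differences were -0.459, -5.07 and -9.00 Mb. The library of CT0 mouse 1 had bins of 47 kb and 109 LADs, and that of CT0 mouse 2 bins of 4 kb and 285 LADs. The part of the bin size in these differences was not tested. For Nfil3, CT24 minus CT12 was -0.39 Mb without CT12 mouse 2 and -4.40 Mb without CT12 mouse 1. In the opposite direction, 9.09% of all genes were farther in both CT0 mice than in both NS mice, 9.82% in both CT12 mice than in both CT0 mice and 10.1% in both CT24 mice than in both CT0 mice, and none of the 4 genes was. No comparison of Tef separated its mice.

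Taking as LAD only the base pairs covered in both mice of a group gives the distances that 2 mice share. For Hlf they were 621 kb in NS mice, 409 kb at CT0, 260 kb at CT6, 374 kb at CT12, 299 kb at CT18, 905 kb at CT24 and 346 kb at CT30. Dbp had a shared LAD 1.70 Mb away at CT12, 2.43 Mb at CT18 and 3.23 Mb at CT24, the groups in which both bins were under 30 kb. In the NS, CT0, CT6 and CT30 groups, each with at least 1 library of larger bins, the nearest shared LAD of Dbp was 6.75 to 6.93 Mb away. Tef stayed between 9.94 and 10.5 Mb. Nfil3 was 25.4 Mb away at CT0 and between 7.83 and 13.52 Mb in the other groups.

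In the 2.5 Mb on each side of the start site, LADs covered a part of the Hlf flanks in 14 of 14 mice, 31.9% to 49.9% of the bases and 43.2% ± 4.53 on average (SD, n = 14). All of it was upstream. Around Dbp the share was 0% to 22.9%, with LAD in 9 mice and a mean of 8.08% ± 9.48 (SD, n = 14). It was 17.1% and 15.9% in the CT12 mice, and 21.0% or more in 3 single mice of CT6, CT18 and CT30 whose partners had 1.54% or less. Around Tef and Nfil3 it was 0% in all 14 mice.

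The 4 loci differed in their surroundings, which the choice of genes did not use. Dbp lay in a GC-rich and gene-dense part of the genome: GC content over 500 kb on each side was 50.6%, at percentile 97.4 of all genes, and 94 start sites lay within 1 Mb on either side, at percentile 96.1. Tef was intermediate, with 46.8% GC and 46 start sites. Hlf had 42.5% GC, below the median of 44.1%, and 8 start sites, at percentile 8.65. Nfil3 had still fewer, 6 start sites, at percentile 4.83, against a median of 29, yet its GC content was 47.0%, at percentile 76.6. Hlf and Nfil3 were thus both in gene-poor surroundings, the first beside a LAD and the second 7.78 Mb or more from any.

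Other genes of the clock were also mostly outside LADs, as were most genes. A list of 20 clock genes ran from Clock and Arntl, the activators, to Per, Cry and the nuclear receptor genes. Of these, 1 (5%) had its start in a LAD in any library, beside 17.1% of all genes. It was Rorb, in a LAD in 12 mice. The median of their mean distances was 8.76 Mb, beside 5.55 Mb for all genes. The nearest was Bhlhe40, which encodes a repressor of E-box genes, at 0.527 ± 0.225 Mb (SD, n = 14), a distance of the same order as that of Hlf, and the farthest was Csnk1d, a kinase of PER proteins, at 23.4 Mb.

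Of 14 liver genes known as targets of PAR proteins or NFIL3, 4 are also in the clock list. Of the 14, 1 (7.14%) had its start in a LAD in any library, beside 17.1% of all genes. It was Cyp2c50, a cytochrome P450 gene, in 1 mouse. The median of the mean distances was 5.04 Mb. The nearest on average was Cyp2b10, a P450 gene induced by drugs, at 2.82 ± 3.12 Mb, and the farthest Por, the electron donor of the P450 enzymes, at 37.7 ± 6.69 Mb (SD, n = 14 each). No gene of either list had an unadjusted p under 0.05 in the permutation test between circadian times, which 5.38% of all genes had.

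The genes on other chromosomes whose distance followed that of each member most closely over the 14 libraries were sought by Pearson's r of log10(distance in kb + 10). They were Rps6ka1, Arid1a and Hmgn2 on chromosome 4 for Dbp (r = 0.983, 0.983 and 0.982). They were Fam196b, Foxi1 and 4930469K13Rik on chromosome 11 for Tef (each r = 0.981), Pik3c3 on chromosome 18 with Ankrd42 and Pcf11 on chromosome 7 for Hlf (r = 0.828, 0.801 and 0.7999), and Mecom, Actrt3 and Mynn on chromosome 3 for Nfil3 (r = 0.804, 0.7999 and 0.7997). All points of one library share its bin size and LAD coverage, and these are the highest values among all genes, so they describe the lists and nothing more.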

How the data were processed

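LMNB1 ChIP-seq of 14 livers was used, 2 mice in each of 7 groups taken from the labels. Per the study's methods, the authors removed duplicate reads (Picard), aligned the rest to mm10 (Bowtie2), thinned ChIP and input reads to equal depth per chromosome, and called LADs for each mouse with EDD, with gap penalty and bin size set from repeated runs. The deposited LAD lists used here give starts and ends only, with no signal or score. Reads were not analysed here, so no test uses them and no counting error is given.

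Start sites and genes came from GENCODE vM21 on GRCm38.p6, the assembly of mm10. With NumPy 2.4.6 under Python 3.11.15 (SciPy 1.17.1 beside it), distances were computed for 20807 protein-coding genes and tested by exact permutation of the F ratio (pseudocount 10 kb), which was first tested on simulated data. Cosine fits, which the study used for periodicity, were not run. The bin size was read as the largest step of which all LAD starts on whole kb are multiples (82 starts off whole kb left out). No 2 lists were identical. Percentiles and GC content are over all genes on GRCm38.p6.

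Beside the 4 genes, named genes were the nearest gene on each side, up to 3 genes in each nearest LAD region, the 3 most alike on other chromosomes, and of 2 gene lists those ever in a LAD, the nearest and the farthest. Members and lists were chosen with earlier results of these data known. Printed bases overlap no annotated exon; those of Tef, which precede an internal start, lie in introns of the gene. Protein sequences, RNA-seq and input libraries were not used here.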

Additional observations from a re-analysis of the deposited data

How the results depend on the processing

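Each of 33 values was recomputed under other settings, 387 times in all. In 371 of them the value stayed on its side of the threshold or within the spread between mice, among them all that concern start sites in LADs (0 of 14 libraries for each gene, also with the whole gene body) and all tests between circadian times. In the other 16 it moved beyond that. The LAD share around Hlf was 32.9% with 1 Mb and 28.3% with 5 Mb on each side, and that around Tef 0.511% with 5 Mb. Around Dbp it was 0% with 1 Mb and 15.8% with 5 Mb, within its wide spread between mice. The mean distance of Nfil3 was 13.4 Mb with LADs of at least 1 Mb and 13.1 Mb with base pairs covered in both mice. For Nfil3, CT0 minus NS was 10.9 Mb with LADs of at least 0.5 Mb and 13.1 Mb with base pairs covered in both mice, CT12 minus CT0 was -11.9 Mb with the latter, CT24 minus CT0 was -13.2 Mb with LADs of at least 0.5 Mb or 1 Mb and -17.5 Mb with base pairs covered in both mice, and CT24 minus CT12 was -10.9 Mb and -5.61 Mb in turn. For Dbp, CT24 minus CT12 was 1.88 Mb with LADs of at least 1 Mb, and CT12 minus CT0 was -4.91 Mb with those and -5.04 Mb with base pairs covered in both mice, against -2.74 Mb, which is within the spread between mice. For Tef, CT12 minus CT0 turned from 2.82 to -0.04 Mb with base pairs covered in both mice. The cause of these moves was not tested. Without the 5 libraries of bins over 30 kb, an alternative chosen after seeing the data, the mean distance was 2.09 Mb for Dbp, 0.351 Mb for Hlf, 9.44 Mb for Tef and 8.96 Mb for Nfil3.

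Leaving out each mouse in turn, the mean distance stayed within 0.299 to 0.368 Mb for Hlf, 3.09 to 3.52 Mb for Dbp, 8.99 to 9.45 Mb for Tef and 9.24 to 9.94 Mb for Nfil3. Of the 16 differences between 2 groups, 11 changed sign for at least 1 mouse left out, and the 5 others, whose mice did not overlap, kept their sign but ranged from -0.459 to -0.134 Mb (Hlf, CT0 minus NS), from -5.07 to -0.416 Mb (Dbp, CT12 minus CT0), from 0.784 to 1.55 Mb (Dbp, CT24 minus CT12), from -4.40 to -0.39 Mb (Nfil3, CT24 minus CT12) and from -9.00 to -0.254 Mb (Nfil3, CT24 minus CT0). The permutation test between circadian times called 0 genes under every setting, and the floor of its p left little room for any other count. The unadjusted p of the members in that test was lowest at 0.0692 for Nfil3 (LADs of at least 0.5 Mb), 0.0795 for Hlf (without CT24 replicate 2), 0.159 for Tef (without CT0 replicate 2) and 0.504 for Dbp. The number of genes with an unadjusted p under 0.05 rose from 1119 to 2415 without CT0 replicate 2, to 2008 with LADs of at least 1 Mb and to 1918 with the bin size regressed out, and fell to 634 and 619 without CT12 replicate 1 and 2 and to 706 without CT30 replicate 1. With the replicate number as a block, 0 genes were called, 1072 had an unadjusted p under 0.05, and the permutation p was 0.956 for Hlf, 0.875 for Dbp, 0.742 for Tef and 0.512 for Nfil3. The block allows fewer divisions, and the smallest permutation p over all genes was 0.00139. The numbers went with the deviations in part: same-numbered mice correlated above 0.1 in 7 of 21 pairs of groups (range -0.116 to 0.521).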
